A study of Mus musculus with 16 samples.

Results

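The genes of the cytosolic ribosomal proteins were compared between kidney and liver of the mouse. Members were chosen by gene symbol among probes annotated with 1 symbol: symbols starting with Rpl or Rps and a digit, or equal to Rpsa, Rplp0, Rplp1 or Rplp2, without the ribosomal S6 kinases and without pseudogene symbols. This gave 49 genes on 58 probes, of 9669 genes with such probes, of which 31 carried large subunit symbols (Rpl) and 18 small subunit symbols (Rps, with Rpsa). RefSeq lists 89 protein-coding mouse genes under the same rule. A further 32 probes that list a ribosomal protein symbol beside other symbols were left out. The symbols let in Rps19bp1, which encodes a binding partner of the ribosomal protein RPS19 and no subunit, and Rps4l, which RefSeq gives as a transcribed pseudogene. Both were kept and are among the members in the counts, medians and spreads below.

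A cytosolic ribosome is built from a large and a small subunit, in which ribosomal RNA is held by one copy each of nearly all ribosomal proteins. The proteins are made in balanced amounts in every nucleated cell, and surplus copies are degraded. In mammals many of their mRNAs begin with a run of C and T at the transcription start, the 5′ terminal oligopyrimidine (TOP) tract, through which mTOR signalling and the protein LARP1 control their translation. RNA levels do not report this translational control.

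The study used male wildtype C3HeB/FeJ mice, an inbred strain, kept free of specified pathogens and aged 105 ± 5 days, with no treatment. The same 3 mice gave both organs. RNA of the left kidney of mouse 1, 2 or 3 was hybridised against a pool from 5 livers on 7 arrays (3, 3 and 1 arrays), and RNA of the dorsal liver lobe of the same mice against a pool from 5 kidneys on 9 arrays (3 each). The first are called kidney arrays and the others liver arrays. Each array thus holds both organs. Each value below is a log2 ratio, kidney over liver, so that 1 is a doubling in kidney and -1 a doubling in liver. The ratio relates the organs for a given probe and gives no level, so genes cannot be ordered by abundance. An RNA extract of a whole organ mixes cell types, and fewer cells of a type cannot be told apart from less RNA per cell.

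Between 15480 and 19432 of 20419 probes had a value on an array. The direction was read from markers, against the order of names in the titles: 19 of 21 hepatocyte genes were higher in liver, with a list median of -6.78, and of 10 proximal tubule genes 9 were higher in kidney, with a median of 4.60. These lists set the sign and are not independent evidence of it. With the order of the titles, the words kidney and liver would be exchanged throughout. Of macrophage genes 3 of 6, and of T and B lymphocyte genes 2 of 8, were higher in liver, beside 8.71% of all genes (limma, adjusted p under 0.05). With the mouse as a replicate block these counts were 2 of 6 and 0 of 8 (2 of 8 at an unadjusted p under 0.05). With mouse 2 aligned, as defined below, the lymphocyte genes had 2 calls on the kidney side and 2 on the liver side. The macrophage genes had 1 and 3, beside 20.5% and 16.3% of all genes. Erythroid (3) and endothelial (4) genes had medians of -0.61 and -0.24, beside -0.48 over all genes. With mouse 2 aligned these medians were -0.09 and 0.07, beside -0.02. There 1 erythroid gene passed on the liver side and 1 endothelial gene on the kidney side. The part of these cells in the ribosomal values was not tested. The 6 arrays of mouse 2 had medians between -1.49 and -1.19, whereas the absolute medians of the other 10 were at most 0.00267.

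The promoter stretches of 5 ribosomal genes are shown here for the letters around their transcription start. They run from 60 bases before to 20 bases after it (RefSeq, GRCm38.p6, 5′ to 3′ on the strand of the gene). Capitals mark the longest run of C and T of at least 8 bases. Rpl15, Rpl34 and Rps6 had higher values in kidney and Rpl35 lower ones in at least some treatments of the arrays described below. Rpl36a, also on the kidney side, is shown as one without such a run.
Rpl15, chr14:18270967-18271046, minus strand: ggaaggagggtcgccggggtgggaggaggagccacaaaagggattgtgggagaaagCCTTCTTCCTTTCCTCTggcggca
Rpl34 (downstream of its 2 annotated starts), chr3:130730318-130730397, minus strand: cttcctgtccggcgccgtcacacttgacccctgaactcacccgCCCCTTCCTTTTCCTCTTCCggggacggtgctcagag
Rps6, chr4:86857348-86857427, minus strand: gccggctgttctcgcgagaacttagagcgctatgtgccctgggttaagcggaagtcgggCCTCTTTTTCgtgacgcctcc
Rpl36a, chrX:134585594-134585673, plus strand: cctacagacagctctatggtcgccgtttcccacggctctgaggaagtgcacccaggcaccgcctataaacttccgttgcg
Rpl35, chr2:39005112-39005191, minus strand: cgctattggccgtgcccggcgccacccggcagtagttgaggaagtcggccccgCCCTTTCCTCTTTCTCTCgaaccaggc
The runs of Rpl15, Rpl34, Rps6 and Rpl35 lie across the annotated start shown and are 17, 20, 10 and 18 bases long. At the other start of Rpl34 the longest run had 8 bases, began 13 bases before the start and ended before it. Of the other genes whose stretches were read, Rpl9, Rps15, Rps4x and Rpl36al had no such run, and that of Rpsa began 55 bases before the start.

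RefSeq promoters, from 250 bases before to 50 after the start, were given for 41 of the 49 genes, with 48 starts in all, and 8 genes had no entry in the table used. A run of at least 8 C or T on the gene's strand within 30 bases before to 30 bases after the start was present at 25 of the 48 starts (52.1%), against 22.9% of all 32851 mouse promoters. The letters CTTCCG, on either strand of the whole stretch, were found in 32 (66.7%), against 16.9% of all. They include the core of sites bound by ETS factors such as GABP, and can overlap a C and T run. The letters TATAAA were found in 3 (6.25%), against 13.6%, and GCCATCTT, the core of YY1 sites, in 2 (4.17%), against 2.75%. These matches describe letters and not binding.

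Most ribosomal protein genes lay near equality of the organs, with a few exceptions described below. With the values as deposited, 46 of the 49 could be tested (values in at least 2 mice per organ). Their estimates had an SD of 0.48 over genes, against 0.93 over all 9047 genes tested. Among genes with only bright probes, as defined below, the SD was 0.53 over 16 members and 2.08 over all 1319. With only intermediate probes it was 0.28 over members and 0.62 over all genes. With only dim probes it was 0.36 over 8 members and 0.32 over all 2817, so the members were not narrower there. Of the 46, 31 (67.4%) lay within 0.5 log2 units of 0, against 42.3% of all genes, and 2 (4.35%), Rpl15 and Rps19bp1, lay over 1 unit away, against 15.1%. The median of all genes was itself -0.48 as deposited, and the contrast in shares within 0.5 was small under other scalings. It was 69.6% of members against 68.1% of all genes with each array centred, and 76.1% against 69.7% with mouse 2 aligned by signal, as defined below. Leaving out mouse 2, the shares within 0.5 were 87.5% of 40 members and 71.3% of all genes, and those over 1 unit were 2.50% and 12.8%. This sets a list beside all genes as a description.

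The median of the 46 estimates was -0.20, with quartiles of -0.50 and 0.03, below 0 like the median of all genes. The size of the ribosomal median changed with the treatment of mouse 2. Mice 1 and 3 gave ribosomal medians on both sides of 0. The ribosomal medians on kidney arrays were -0.10, -0.39 and 0.05 for mice 1, 2 and 3, and on liver arrays 0.11, -0.45 and -0.10. Over all genes mouse 2 was lower still, with -1.30 on its kidney arrays and -1.29 on its liver arrays, and the others lay between -0.02 and 0.01. Without mouse 2 the ribosomal median was -0.01 and that of all genes -0.003, and with mouse 2 aligned they were 0.03 and -0.02. With each array centred the ribosomal median was 0.25 and that of all genes -0.01. Large and small subunit genes had medians of -0.30 (28 genes) and -0.13 (18 genes) as deposited, -0.01 and 0.06 with mouse 2 aligned, and 0.003 and -0.01 without mouse 2.

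**Figure D1:**
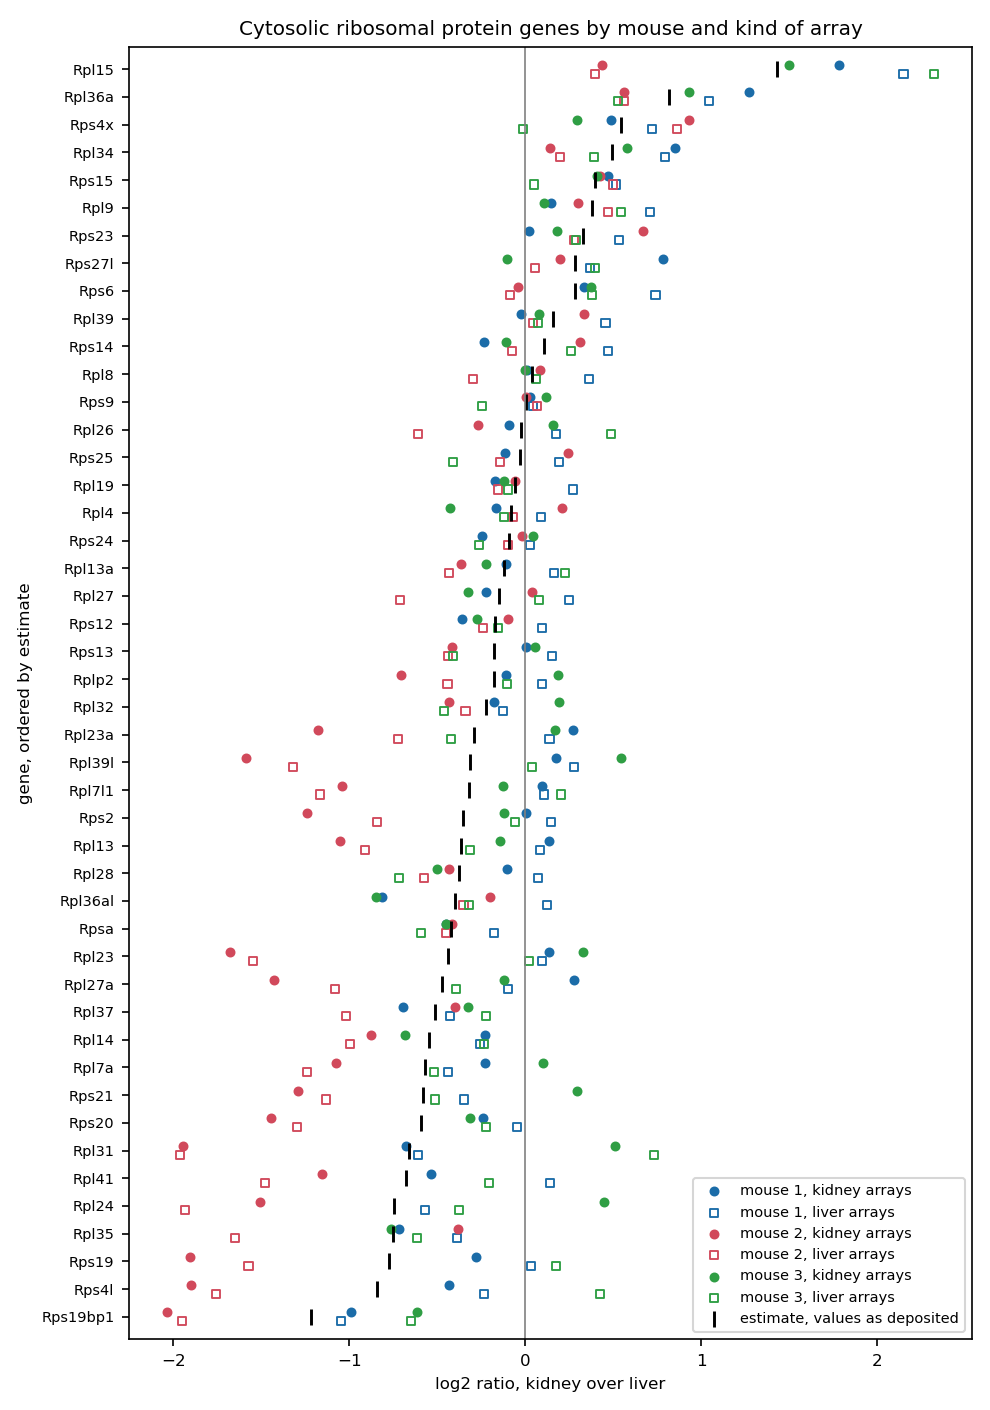
Log2 ratios of kidney over liver (horizontal axis) of the 46 tested ribosomal protein genes (vertical axis, ordered by estimate), with a point for each mouse and kind of array (filled circles, kidney arrays; open squares, liver arrays) and a bar at the estimate from values as deposited. Rpl15 stands at the top with all 6 values above 0, Rps19bp1 at the bottom with all 6 below 0, and the points of mouse 2 lie far to the left for many genes of the lower part.

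The offset of mouse 2 was small for bright ribosomal probes. Raw intensities were not used, so signal was judged from the share of a probe's values that recur exactly on their array over the 10 arrays of mice 1 and 3, a sign of small whole-number intensities. With values on at least 8 of these arrays, probes were classed as bright up to a share of 0.1 and as dim above 0.5. Of 51 ribosomal probes that could be classed, 23 (45.1%) were bright and 10 (19.6%) dim, against 18.0% bright and 43.3% dim among all 16463 classed probes, while 18 lay between and 7 were not classed. The share is read from the ratios themselves, and a large organ difference can also keep a value from recurring.

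The mouse 2 average minus that of mice 1 and 3 had a median of -0.02 over the 23 bright ribosomal probes, -0.71 over the 18 between and -1.16 over the 10 dim. Over all bright, intermediate and dim probes it was -0.28, -1.08 and -1.49. The bright ribosomal probes ranged from -1.52 (Rpl15) to 0.52 (Rps4x). Alignment by signal moved each mouse 2 array to the medians of mice 1 and 3 within 11 bins of the recurring share. By construction this lowers the spread between mice. It also moved probes that did not share the offset of their bin. The intermediate probe of Rps25 was 0.16 above mice 1 and 3 in mouse 2, and the dim probe of Rps9 was 0.05 above them. Aligned, their estimates were 0.56 and 0.49, against -0.03 and 0.003 as deposited. Centring subtracted the array median, between -1.49 and -1.19 for mouse 2, from every probe alike. It thus also raised the mouse 2 values of the bright ribosomal probes, whose median offset was -0.02.

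**Figure D2:**
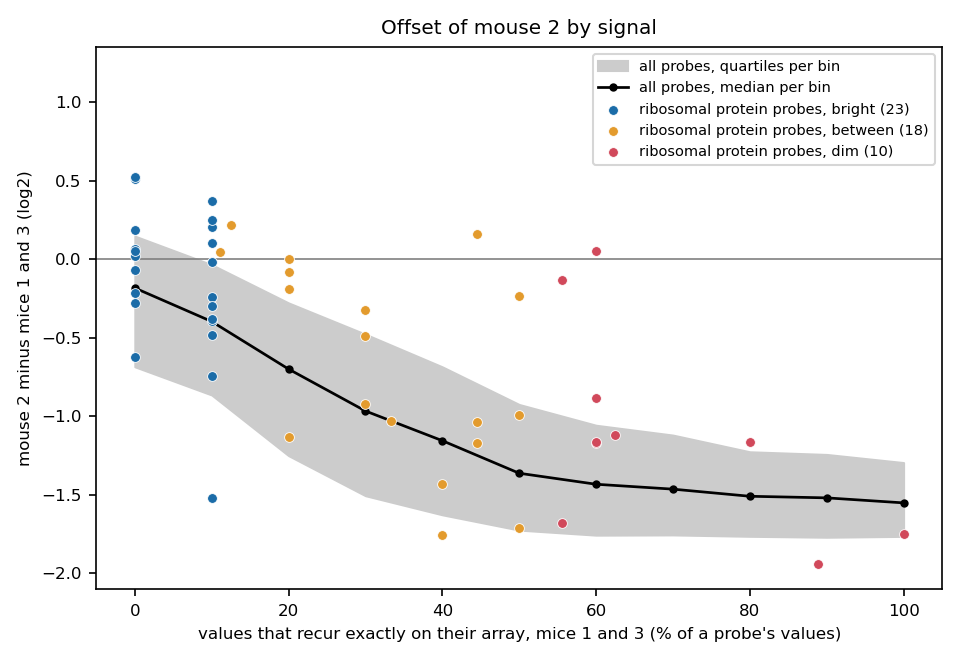
Mouse 2 minus mice 1 and 3 (vertical axis, log2) against the percentage of a probe's values that recur exactly on their array (horizontal axis, high for weak signal), with ribosomal protein probes as points, the medians of all probes as a line and their quartiles as a band. Bright ribosomal probes scatter around 0 with Rpl15 at -1.52. Most dim ones lie above the falling line, which ends at -1.55.

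Few ribosomal genes passed the threshold. With the values as deposited, 2 of 46 had higher levels in kidney and 1 in liver (limma, adjusted p under 0.05), beside 5.47% and 8.71% of all 9047 genes. The 2 were Rpl15 and Rpl36a, and the 1 was Rps19bp1, the binding partner. With mouse 2 aligned 9 and 2 passed, beside 20.5% and 16.3% of all genes, and with each array centred 7 and 1, beside 19.3% and 12.4%. Without mouse 2, 5 and 5 of 40 passed, beside 20.1% and 15.7% of 7575 genes. In each of these 8 counts the ribosomal share was no higher than that of all genes, and the 9 of 46 with mouse 2 aligned lay close to it.

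Kidney and liver of a mouse come from the same animal, and their deviations from the group means moved together on the scale of kidney over liver, with correlations of 0.591, 0.795 and 0.585 for mice 1, 2 and 3 across probes, which are not independent. With the mouse as a replicate block, 1 ribosomal gene was higher in kidney (Rpl15) and 0 in liver (limma; 2 of 46 at an unadjusted p under 0.05), beside 2.77% and 4.65% of all genes. That fit gave every ribosomal gene with 6 averages the same SE of 0.45. Its p-values for these genes thus follow the size of the estimate and do not measure the spread of each gene between mice. The block with mouse 2 aligned gave 3 and 2, beside 14.2% and 9.46%. They were Rpl15, Rpl36a and Rpl34 in kidney and Rps19bp1 and Rpl35 in liver.

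**Figure D3:**
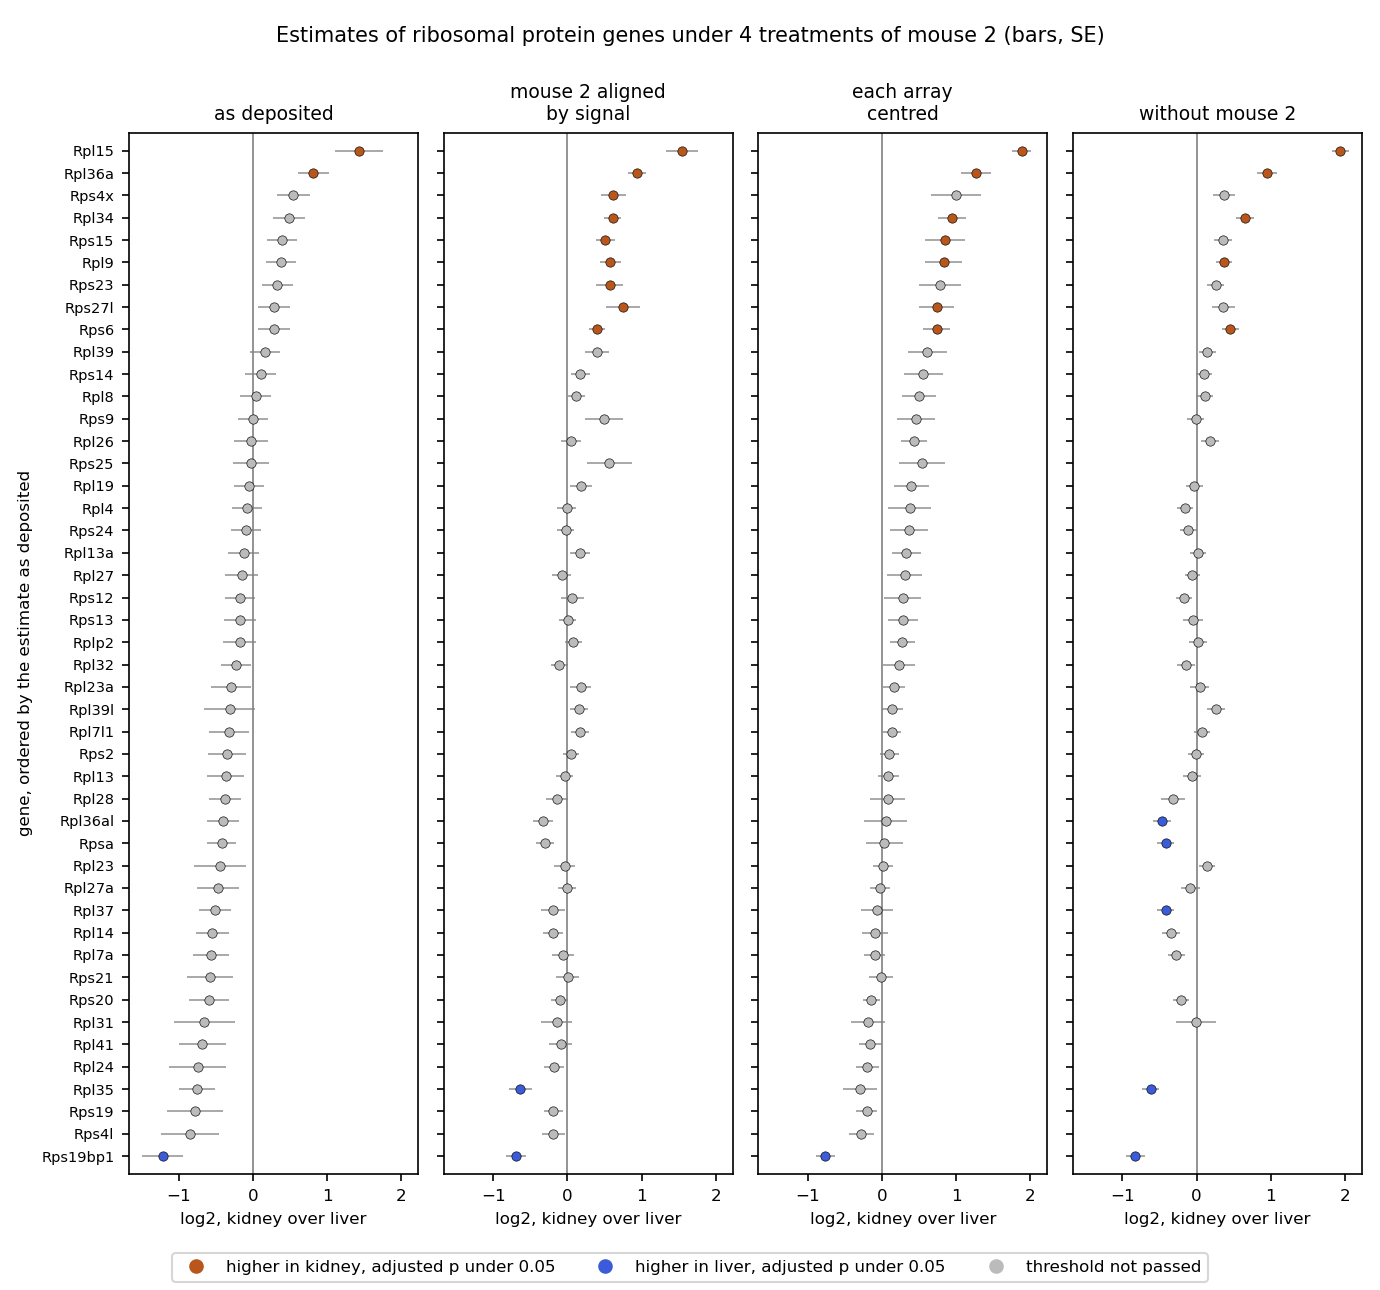
Estimates of kidney over liver (horizontal axes, log2; bars, SE) of the 46 tested ribosomal protein genes, in the order of the values as deposited, with the values as deposited, with mouse 2 aligned by signal, with each array centred and without mouse 2. Coloured points passed an adjusted p of 0.05; Rpl15 and Rpl36a are higher in kidney and Rps19bp1 higher in liver in all 4 panels, and genes with no value without mouse 2 leave a gap in the last panel.

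Rpl15 had the largest organ difference of the ribosomal genes. It encodes a large subunit protein, mutated in some families with Diamond-Blackfan anaemia in humans. Its values were 1.78, 0.44 and 1.50 on kidney arrays of mice 1, 2 and 3 and 2.15, 0.40 and 2.32 on their liver arrays. Both kinds of arrays placed it on the kidney side in every mouse, and mouse 2 stood apart below the others. Its 6 single arrays ran from 0.05 to 0.63, while the 10 of mice 1 and 3 ran from 1.50 to 2.55. The estimate was 1.43 ± 0.32 (SE, n = 3 mice per organ), or 2.70-fold higher in kidney, with a limma adjusted p of 0.0187. Without mouse 2 it was 1.94 ± 0.11, or 3.83-fold, and with mouse 2 aligned 1.55 ± 0.22. The probe was bright, and the offset of mouse 2 on it was -1.52, against a median offset of -0.28 over all bright probes. The adjusted p was 0.195 without mouse 1 and 0.153 without mouse 3.

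Rpl36a, an X-linked gene of a large subunit protein near the exit site for tRNA, came next. It had 1.27, 0.56 and 0.93 on kidney arrays and 1.04, 0.56 and 0.53 on liver arrays of mice 1, 2 and 3. All 6 were above 0, and mouse 2 lay within the range of the others on liver arrays. The estimate was 0.82 ± 0.21, or 1.76-fold higher in kidney (limma adjusted p = 0.0377), and 0.94 ± 0.13 without mouse 2. With the replicate block the limma adjusted p was 0.284, and with the block and mouse 2 aligned 0.00354.

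Its near-identical copy Rpl36al, on chromosome 12, was on the liver side. The values were -0.81, -0.20 and -0.85 on kidney arrays and 0.12, -0.35 and -0.32 on liver arrays. The 2 kinds of arrays of mouse 1 disagreed in sign. The estimate of -0.40 ± 0.21 did not pass (limma adjusted p = 0.193), while without mouse 2 it was -0.46 ± 0.12 and passed (0.0249). After centring it was 0.05. In each of the 6 averages Rpl36a lay above Rpl36al, by 0.77 to 2.08. cDNA probes of such copies can bind both transcripts, and the share of cross-hybridisation was not tested.

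Rpl34, Rps6 and Rpl9 did not pass as deposited but were higher in kidney with mouse 2 aligned, with each array centred and without mouse 2. Rpl34, a large subunit gene, had 0.85, 0.14 and 0.58 on kidney arrays and 0.79, 0.20 and 0.39 on liver arrays. Mouse 2 gave the lowest value on each kind. Its estimate of 0.49 ± 0.22 did not pass (limma adjusted p = 0.142), and without mouse 2 it was 0.65 ± 0.12 and passed (0.00683). Rps6, the small subunit protein phosphorylated by S6 kinases downstream of mTOR, had 0.34, -0.04 and 0.37 on kidney arrays and 0.74, -0.09 and 0.38 on liver arrays. Mouse 2 was slightly below 0 on both kinds and the other mice above it. The estimate was 0.28 ± 0.22 as deposited (limma adjusted p = 0.320) and 0.46 ± 0.12 without mouse 2 (0.0220). It is the mean of 2 bright probes of opposite sign, of which one was below 0 in all 6 averages.

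Rpl9, of the large subunit, had 0.14, 0.30 and 0.11 on kidney arrays and 0.71, 0.47 and 0.54 on liver arrays. Every liver array average exceeded every kidney array average, all above 0. It was at 0.38 ± 0.20 as deposited (limma adjusted p = 0.186) and at 0.38 ± 0.11 without mouse 2 (0.0335). With the replicate block and mouse 2 aligned the limma adjusted p was 0.112 for Rps6 and 0.0519 for Rpl9, and with the block and each array centred 0.0712 and 0.105, so these calls were lost, while Rpl34 passed in both (0.0275 and 0.0346).

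Rps15 and Rps27l passed on the kidney side with mouse 2 aligned and with each array centred, and Rps4x and Rps23 with mouse 2 aligned. None of the 4 passed without mouse 2 or as deposited. Rps15, a small subunit protein needed for late maturation of that subunit, had 0.47, 0.43 and 0.41 on kidney arrays and 0.52, 0.50 and 0.05 on liver arrays. Its mice differed little apart from the liver of mouse 3. The estimate was 0.40 ± 0.20 (limma adjusted p = 0.182), 0.51 ± 0.13 with mouse 2 aligned (0.0153) and 0.36 ± 0.12 without mouse 2 (0.0600).

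For the X-linked Rps4x the values were 0.49, 0.93 and 0.30 on kidney arrays and 0.72, 0.86 and -0.01 on liver arrays, so mouse 2 was the highest on each kind. Its estimate was 0.55 ± 0.22 as deposited (limma adjusted p = 0.129) and 0.62 ± 0.17 with mouse 2 aligned (0.0191). Rps23, a protein of the decoding centre, had 0.03, 0.67 and 0.18 on kidney arrays and 0.54, 0.28 and 0.29 on liver arrays, again with all 6 above 0. Rps27l, a paralogue of Rps27 known as a p53 target in human cells, had 0.78, 0.20 and -0.10 on kidney arrays and 0.37, 0.06 and 0.40 on liver arrays. As deposited the estimates were 0.33 ± 0.21 for Rps23 and 0.28 ± 0.22 for Rps27l. Alignment set the mouse 2 averages of Rps27l to 1.66 and 1.42 and its estimate to 0.75 ± 0.23 (limma adjusted p = 0.0284). Those of Rps23 became 1.32 and 1.07, with an estimate of 0.57 ± 0.18 (0.0385). Without mouse 2 the adjusted p was 0.119 for Rps23, 0.126 for Rps27l and 0.0934 for Rps4x. With the replicate block and mouse 2 aligned none of the 4 genes passed, with limma adjusted p of 0.0688 for Rps15, 0.0593 for Rps4x, 0.0907 for Rps23 and 0.0574 for Rps27l.

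On the liver side the lowest value belonged to Rps19bp1, known in human cells as AROS, an activator of the deacetylase SIRT1 that binds RPS19. It had -0.99, -2.03 and -0.62 on kidney arrays and -1.05, -1.95 and -0.65 on liver arrays of mice 1, 2 and 3. All 6 lay below 0, both kinds of arrays gave nearly the same value in each mouse, and mouse 2 was the lowest. The estimate was -1.21 ± 0.28, or 2.32-fold higher in liver (limma adjusted p = 0.0206), and -0.82 ± 0.13, or 1.77-fold, without mouse 2 (0.00288). Its probe was dim, with 80% of values recurring. With the replicate block the limma adjusted p was 0.0882, and with the block and mouse 2 aligned 0.0212. RPS19 itself, encoded by Rps19 and mutated in Diamond-Blackfan anaemia in humans, had -0.28 and -1.91 on kidney arrays of mice 1 and 2, and 0.03, -1.57 and 0.17 on liver arrays. Only mouse 2 was far from 0, and the estimate of -0.77 ± 0.38 did not pass (limma adjusted p = 0.177).

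Among subunits, Rpl35 passed on the liver side in 6 of 16 alternative settings. It encodes a large subunit protein near the exit of the peptide tunnel. The values were -0.71, -0.38 and -0.76 on kidney arrays and -0.39, -1.65 and -0.62 on liver arrays. All 6 were below 0, and mouse 2 gave both the value nearest to 0 and the lowest one. Its estimate was -0.75 ± 0.24 (limma adjusted p = 0.0729), -0.63 ± 0.15 with mouse 2 aligned (0.0101) and -0.62 ± 0.11, or 1.54-fold higher in liver, without mouse 2 (0.00496). With each array centred it was -0.30 and did not pass (0.339).

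Rpsa, a small subunit protein also known as a laminin receptor, had -0.45, -0.42 and -0.45 on kidney arrays and -0.17, -0.45 and -0.59 on liver arrays. The kidney array averages were nearly equal, and mouse 2 did not stand apart. Its estimate of -0.42 ± 0.20 did not pass (limma adjusted p = 0.162), passed without mouse 2 at -0.42 ± 0.12 (0.0342), and was 0.03 after centring. Rpl37, a large subunit protein, had -0.70, -0.40 and -0.33 on kidney arrays and -0.42, -1.02 and -0.22 on liver arrays, all below 0. It was at -0.51 ± 0.21 as deposited (limma adjusted p = 0.132) and at -0.42 ± 0.12 without mouse 2 (0.0342). It was -0.19 with mouse 2 aligned (0.375) and -0.07 with each array centred (0.829).

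Rpl24 and Rps4l were among the 5 lowest estimates as deposited. Rpl24, altered in the belly spot and tail mutant mouse, had -1.51 and 0.45 on kidney arrays of mice 2 and 3 and -0.57, -1.93 and -0.38 on liver arrays. Rps4l had -0.43 and -1.90 on kidney arrays of mice 1 and 2, and -0.24, -1.76 and 0.43 on liver arrays. In both, mouse 2 gave the lowest value on each kind of array. Their estimates were -0.74 ± 0.38 and -0.84 ± 0.39 as deposited, and -0.18 ± 0.14 and -0.19 ± 0.15 with mouse 2 aligned. Neither passed in either fit. With a value on kidney arrays in too few mice, Rpl24, Rps4l and Rps19 could not be tested without mouse 2.

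The other 29 tested genes passed in none of the 4 treatments. They were the large subunit genes Rpl4, Rpl7a, Rpl7l1, Rpl8, Rpl13, Rpl13a, Rpl14, Rpl19, Rpl23, Rpl23a, Rpl26, Rpl27, Rpl27a, Rpl28, Rpl31, Rpl32, Rpl39, Rpl39l, Rpl41 and Rplp2, and the small subunit genes Rps2, Rps9, Rps12, Rps13, Rps14, Rps20, Rps21, Rps24 and Rps25. Their estimates ran from -0.68 (Rpl41) to 0.16 (Rpl39), with SE from 0.20 to 0.41 and adjusted p of at least 0.128. As deposited 25 of the 29 lay below 0, with a median of -0.22. Without mouse 2, 16 of 26 did, with a median of -0.02 and a range of -0.35 (Rpl14) to 0.26 (Rpl39l). In mice 1 and 3 their averages ran from -0.71 to 0.73, while the means of mouse 2 reached -1.95 (Rpl31). A threshold not passed does not show equal levels.

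Rpl11, Rpl21 and Rpl7 had too few values for a test. Rpl11, which binds and inhibits the p53 regulator MDM2, was measured in mouse 1 alone, at 0.18 on kidney arrays and 0.49 on liver arrays. Rpl21 had -2.92 on kidney arrays of mouse 2 and -0.08, -2.40 and -1.06 on liver arrays of mice 1, 2 and 3. Rpl7 had -1.24 on kidney arrays of mouse 2 and -0.49, -1.85 and -0.61 on liver arrays. Mouse 2 was again the lowest where it could be compared.

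Arrays of either kind gave similar values. The mean over kidney arrays and that over liver arrays had the same sign for 41 of 46 genes. Their difference had a median of -0.02, against -0.04 over all genes, and ran from -0.64 (Rps4l) to 0.43 (Rpl24), both with a missing kidney average. Mouse 2 contributes the same sign to both kinds of arrays. Of 40 genes with all 6 averages, 6 were above 0 in every one, beside 10.03% of all genes, and 6 below 0 in every one, beside 22.5%. The 6 above were Rpl15, Rpl36a, Rpl34, Rpl9, Rps15 and Rps23, and the 6 below were Rps19bp1, Rpl35, Rpl37, Rpl14, Rps20 and Rpsa. In mouse 1, 34 of 44 genes were higher on liver arrays than on kidney arrays, against 17 of 46 in mouse 2 and 21 of 42 in mouse 3. Neither these counts nor the 41 of 46 were made over all genes. The medians of mouse 1 on kidney and liver arrays were 0.009 and 0.011 over all genes tested. Over the 1319 genes with only bright probes they were 0.09 and 0.33, and over 16 such ribosomal genes -0.13 and 0.31.

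With all 3 mice, the SD between mice was larger than that between technical repeats. With mice 1 and 3 alone the SDs were similar in size. The SD between repeats is over single arrays, and that between mice over averages of up to 3 arrays. Averages vary less than single arrays, so similar SDs do not show that these mice differed no more than repeats. The median SD of ribosomal probes between hybridisations of the same RNA was 0.20, and between mice within a kind of array 0.44. For all probes these were 0.27 and 0.79. For the pair of mice 1 and 3 the ribosomal value was 0.21, and for all probes 0.23.

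The 8 genes with several probes show how far clones of the same gene differ. They are described as a complete set, chosen after the values were seen, and none had probes at 0.5 or more in size with opposite signs. For Rps6 a bright probe gave 0.81, 0.53 and 0.89 on kidney arrays and 1.53, 0.21 and 1.22 on liver arrays, all above 0. A second bright probe gave -0.14, -0.61 and -0.15 on kidney arrays and -0.05, -0.38 and -0.46 on liver arrays, all below 0. Their estimates were 0.87 and -0.30, so the gene value of 0.28 is the mean of probes with opposite signs. Rpl4 likewise had a bright probe at -0.54, below 0 in all 6 averages, and a bright one at 0.38, above 0 in 4 of 6.

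Probes of Rpl9 also differed in sign, with estimates of 0.85 for the bright and -0.09 for the intermediate probe. For Rplp2, a protein of the acidic stalk that binds elongation factors, they were 0.25 for the bright and -0.61 for the intermediate probe. Rps13 and Rpl13a had 0.10 and 0.12 for the bright and -0.45 and -0.36 for the intermediate probe. The 3 probes of Rpl14 gave -0.08 where bright and -0.50 and -1.05 where dim. In these 5 genes the dimmer probes were the lower ones, with mouse 2 offsets between -1.68 and -0.13. The second probe of Rpl37 had a value on 1 array.

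**Figure D4:**
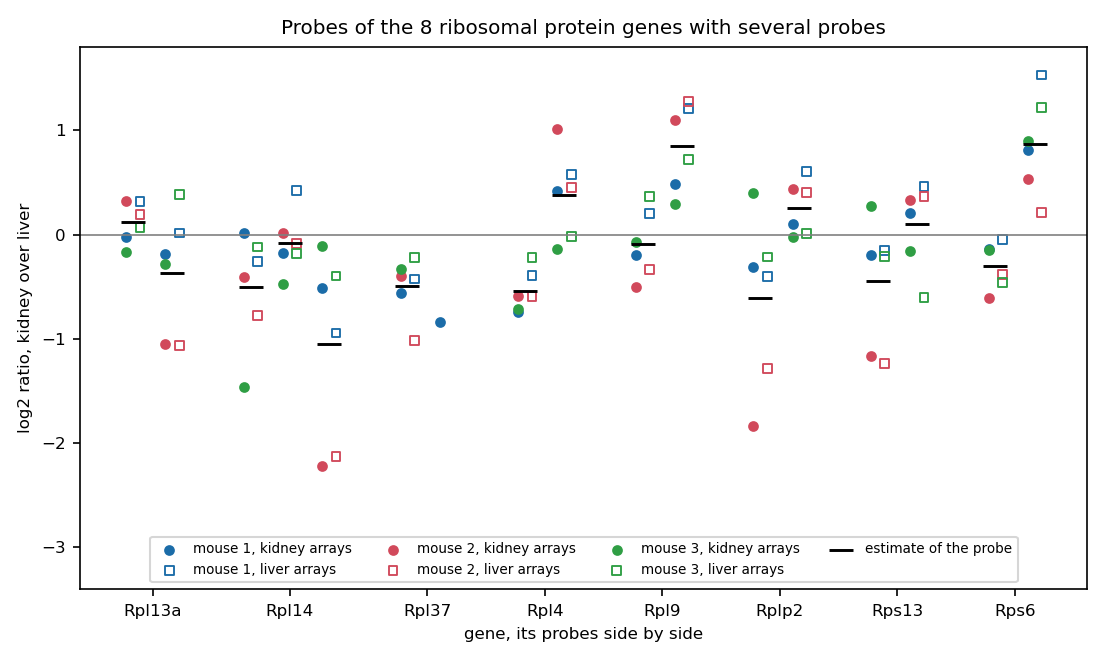
Log2 ratios of kidney over liver (vertical axis) of each probe of the 8 ribosomal protein genes with several probes (horizontal axis, probes of a gene side by side), with a point for each mouse and kind of array and a bar at the estimate of the probe. The probes of Rps6 at 0.87 and -0.30 do not overlap, nor do those of Rpl4 at 0.38 and -0.54.

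Other near-identical pairs were less clear than Rpl36a and Rpl36al. Rpl39 exceeded Rpl39l in 4 of 6 averages, by -0.47 to 1.92, and Rps4x exceeded Rps4l in 4 of 5, by -0.44 to 2.83. The largest of these differences came from mouse 2, whose offset was larger for Rpl39l (-1.71) and Rps4l (-1.75) than for their partners (0.04 and 0.52). Rpl36a, Rps4x and Rpl39 are the 3 members on the X chromosome, and their estimates of 0.82, 0.55 and 0.16 were all above 0. This grouping was chosen after the values were seen.

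Genes that serve the ribosome were measured beside its proteins. Of all genes, 5.47% passed on the kidney side and 8.71% on the liver side as deposited, 20.5% and 16.3% with mouse 2 aligned, 20.1% and 15.7% without mouse 2, and 2.77% and 4.65% with the replicate block. The medians of all genes were -0.48 as deposited, -0.02 with mouse 2 aligned and -0.003 without mouse 2. Of 15 other TOP mRNAs, which encode translation factors and related proteins, 0 passed in either direction (limma; 2 at an unadjusted p under 0.05), with a median of -0.24. With mouse 2 aligned 3 and 1 passed, and without mouse 2 2 and 2 of 14. Among 41 ribosome biogenesis factors 3 passed on the kidney side and 1 on the liver side, with a median of -0.29. The kidney side held Emg1, a methyltransferase of the small subunit RNA (1.10 ± 0.21; limma adjusted p = 0.00864), and Gnl3, nucleostemin (1.06 ± 0.22). Utp14a, of the small subunit processome, was the one on the liver side (-1.11 ± 0.28). With mouse 2 aligned the counts were 14 and 2, without mouse 2 10 and 2 of 36, and with the replicate block 0 and 0 of 41 (limma; 3 at an unadjusted p under 0.05).

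Of 12 genes of growth control over ribosome synthesis, 1 was higher in liver as deposited and 0 in kidney. It was Eif4ebp1, the translational repressor 4E-BP1 that mTOR inactivates, with -1.59, -2.38 and -1.64 on kidney arrays and -1.54, -2.37 and -2.09 on liver arrays. All 6 were far below 0, and the estimate was -1.94 ± 0.23. The list's median was -0.08. With mouse 2 aligned 2 passed on the kidney side and 1 on the liver side, with a median of 0.23. With each array centred these counts were 2 and 2, and without mouse 2 they were 1 and 1 of 9. Among 60 mitochondrial ribosomal proteins, which form a separate ribosome, 2 passed on the kidney side and 4 on the liver side, with a median of -0.43. With mouse 2 aligned these counts were 8 and 11, without mouse 2 7 and 9 of 50, and with the replicate block 1 and 2. Mrpl11 (-4.36 ± 0.20), Mrps17 (-1.46 ± 0.21) and Mrps18c (1.93 ± 0.46) led them, each further from 0 than any cytosolic ribosomal gene as deposited. None of these lists was tested as a list.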

How the data were processed

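Per the labels' protocols, the submitters used 20 µg of RNA per indirect Cy3 or Cy5 labelling, and slides were read on a GenePix 4000A scanner. By the same protocols, GenePix Pro 3.0 gave background-subtracted mean intensities scaled to a median ratio of 1. The 6 arrays of mouse 2 did not have that median. Turned to kidney over liver, their median log2 ratios lay between -1.49 and -1.19. The deposited values are log2 ratios of the 2 channels; the labels state neither base nor direction. Of 144 spacings between frequent values, 61 matched log2 of whole-number ratios up to 10 (within 1e-04), 0 the natural logarithm and 1 log10. Dyes per array are not given in the sources used here.

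Members and lists were chosen with earlier results of these data known. Probes of a symbol were averaged, as were arrays of the same mouse and organ. limma 3.58.1 (R 4.3.3) modelled the resulting 6 values by their mean and the kind of array, over 9047 genes, with two-sided p-values adjusted by Benjamini-Hochberg at 0.05. The fit was checked on simulated data with independent values. That check thus does not cover the pairing of organs within a mouse. Values per mouse are given for members past the threshold in 1 of 4 treatments and for the 5 highest and 5 lowest estimates, 17 in all. In other lists up to 3 called genes with the largest change are named.

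Mice pair the organs by the labels. Deviations on the scale of sample over pool correlated at -0.591, -0.795 and -0.585 for mice 1, 2 and 3 over 14688 probes, which are not independent. The reported fit has no block, which makes its errors and p-values rather too small. Only 3 mice limit the precision, the pools give no spread, and no depth applies to arrays. Promoters and RefSeq names are from GRCm38.p6, and figures from matplotlib 3.10.9.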

Additional observations from a re-analysis of the deposited data

Results flagged for a closer look

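In 2 of 33 groups of 4 to 10 arrays of a named gene, 1 array stood far from the rest, and chance alone marks about 1 in 20 groups. For Rps27l, liver array d of mouse 2 gave -0.26, while the other 8 liver arrays lay between 0.14 and 0.51. For Rpsa, kidney array c of mouse 2 gave -0.26, and the other 6 kidney arrays lay between -0.53 and -0.44. Both arrays are of mouse 2, whose medians lie below 0, while the Rpsa value lay above its group and the Rps27l value below. The part of the mouse 2 offset in these 2 values was not tested.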

How the results depend on the processing

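Against 1283 genes as deposited, 2873 passed with each array centred, 3336 with mouse 2 aligned by signal, 6507 after quantile normalization, 2050 with single arrays and a random block, 672 with the replicate block, 2142 with the replicate block and mouse 2 aligned (added after seeing the data), 455 on kidney arrays alone, 831 on liver arrays alone and 467 to 2713 when each mouse was left out, the last without mouse 2. Ribosomal genes higher in kidney, 2 as deposited, numbered 7 with centring, 9 with alignment, 1 with the replicate block, 0 on kidney arrays alone (2 of 46 at an unadjusted p under 0.05), 1 on liver arrays alone, 6 with bright probes alone and 0 to 5 without each mouse. Those higher in liver, 1 as deposited, numbered 2 with alignment, 21 after quantile normalization, 0 with the replicate block, 2 with the block and alignment, 0 on kidney arrays alone and 0 on liver arrays alone (6 of 48 at an unadjusted p under 0.05), 3 with bright probes alone, 2 with the random block and 0 to 5 without each mouse. After quantile normalization 5510 of all 9047 genes passed on the liver side, beside 21 of 46 ribosomal genes. With bright probes alone, 718 of 1760 genes passed on the kidney side and 555 on the liver side. The ribosomal counts there were 6 and 3 of 21. In each of these counts the ribosomal share was below that of all genes. Without mouse 1 and without mouse 3 no ribosomal gene passed in limma, and 2 and 4 had an unadjusted p under 0.05. The ribosomal median, -0.20 as deposited, was 0.25 with centring, with or without the replicate block, 0.045 with the block and alignment and 0.099 with bright probes alone. Over all 16 arrays 18 ribosomal probes were dim in place of 10, and 16 were bright in place of 23. The shares of all probes over 16 arrays are not given here. The cause of these shifts was not tested.

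Of 256 estimates of the 17 named genes under alternatives, 197 kept direction and side of the threshold, 41 newly passed and 13 of Rpl15, Rpl36a and Rps19bp1 no longer passed with unchanged direction. The other 5, all of genes that had not passed, changed sign: Rpl36al and Rpsa after centring, with or without the block, and Rps6 (-0.30) with its probe of the lowest recurring share. The estimate of Rpl15 ran from 1.16 to 1.94 and passed in 13 of 16 alternatives. Precision is limited by 3 mice, and signal over background was judged only from recurring values.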
